A study of Sus scrofa with 5 samples.

Results

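The cells described here are pig skin fibroblasts that carried the RNA of GREM1 or F13A1. They were chosen by measured values: a cell had at least 500 detected genes, at least 2% of its unique molecular identifiers (UMIs, which count RNA molecules) in COL1A1, COL1A2 and COL3A1, and at most 2 UMIs in total of RGS5, VWF and PTPRC. These cells, called gated fibroblasts below, numbered 6111. A gated fibroblast became a member with at least 3 UMIs of GREM1 and F13A1 together, provided that fewer than 2 of the genes MMP13, IL11, PRSS35 and TUBB3 reached 2 UMIs. This gave 1605 members of 28654 cells with 500 genes, and 3796 other gated fibroblasts that failed the GREM1 and F13A1 rule. The remaining 710 gated fibroblasts were set apart by MMP13, IL11, PRSS35 and TUBB3. All values of GREM1 and F13A1 in members are therefore descriptions of the choice.

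Pigs received full-thickness wounds that were covered with split-thickness skin grafts, which are sheets of epidermis and upper dermis. The 5 groups were the graft under a hydrogel with an inhibitor of focal adhesion kinase (FAK) at day 90, the untreated graft at day 90, the FAK inhibitor graft at day 7, the untreated graft at day 7, and unwounded skin that received no treatment. FAK is a kinase that passes mechanical signals from integrins into the cell. Tissue was digested with enzymes and single cells were captured for 3′ RNA sequencing on the 10x Genomics platform, with 1 library per group. The cells came from several pigs, but the sources used here do not say how many animals each library holds, nor their strain, sex or age.

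Gremlin 1, the product of GREM1, is a secreted antagonist that binds bone morphogenetic proteins (BMPs) and keeps them from their receptors. F13A1 encodes the catalytic A subunit of coagulation factor XIII, which crosslinks fibrin in a clot, and it is known from macrophages and platelets as well as from dermal cells. FAP is a serine protease on the surface of activated fibroblasts, PDPN encodes podoplanin, a membrane glycoprotein raised on fibroblasts of inflamed tissue, and SPON2 encodes the secreted matrix protein spondin 2.

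Libraries held between 18485301 and 79671374 UMIs. With 1 library per group there was no replicate spread and no test. Intervals below are 95% intervals that cover counting error only. A gene is called higher or lower where its ratio was at least 1.5-fold, among genes that reached 50 counts per 1000000 UMIs (CPM) in either group of summed cells, and this is a rule of size. Members had median depths of 13319 UMIs in the FAK inhibitor graft and 18084 in the untreated graft at day 90. At day 7 these were 12513 UMIs in the FAK inhibitor graft and 11727 in the untreated graft, and members of unwounded skin had 11905. Other gated fibroblasts had median depths of 16212 UMIs (FAK inhibitor) and 16186 UMIs (untreated) in day 90 grafts, 8580 and 9181 UMIs in day 7 grafts, and 8561 UMIs for unwounded skin. Some cell barcodes occurred in more than 1 library: unwounded skin shared 152 with the FAK inhibitor graft and 133 with the untreated graft at day 90, those day 90 grafts shared 70, and the day 7 grafts shared 32. Among members, 4 cells of the FAK inhibitor graft at day 90, 4 of the FAK inhibitor graft at day 7, 1 of the untreated graft at day 7 and 2 of unwounded skin had such a barcode. Without them the counts of genes called in each comparison below moved by less than 1.5 times.

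Members were frequent among day 7 fibroblasts and also among those of unwounded skin. They were 128 of 811 gated fibroblasts in the FAK inhibitor graft at day 90, a share of 15.8% (interval 13.3 to 18.5, Clopper-Pearson, as for all shares). In the untreated graft at day 90 they were 149 of 2185, or 6.82% (5.80 to 7.96). In the FAK inhibitor graft at day 7 they were 605 of 1472, or 41.1% (38.6 to 43.7), and in the untreated graft at day 7 they were 627 of 1386, or 45.2% (42.6 to 47.9). In unwounded skin they were 96 of 257, or 37.4% (31.4 to 43.6). The label of these cells names early wounds, and the share in unwounded skin goes against a limit to early wounds, so they are called GREM1 and F13A1 fibroblasts here. The share at day 90 was 0.384 times that at day 7 in FAK inhibitor grafts (0.306 to 0.479) and 0.151 times in untreated grafts (0.121 to 0.187). Digestion can free cell types unequally, and its part in these shares was not tested.

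At day 90 the share in the FAK inhibitor graft was 2.31 times that in the untreated graft (1.68 to 3.19). At day 7 the ratio was 0.909 with an interval of 0.805 to 1.03 that includes 1. Both ratios depended on the exclusion of cells with MMP13, IL11, PRSS35 and TUBB3. The cells excluded by these genes that passed the GREM1 and F13A1 threshold numbered 0 with the FAK inhibitor and 122 in the untreated graft at day 90. At day 7 they numbered 209 with the FAK inhibitor and 51 in the untreated graft, and there were 0 in unwounded skin. With them counted in, the shares were 15.8% in the FAK inhibitor graft and 12.4% in the untreated graft at day 90, and 55.3% in the FAK inhibitor graft and 48.9% in the untreated graft at day 7. The ratio of the FAK inhibitor graft to the untreated graft was then 1.27 at day 90, with an interval of 0.963 to 1.67 that includes 1. At day 7 it was 1.13 (1.02 to 1.25). A threshold in UMIs also favours deep cells: with each cell thinned to 3000 UMIs the shares were 4.92% with the FAK inhibitor and 3.35% in the untreated graft at day 90. At day 7 they were 24.1% with the FAK inhibitor and 29.9% in the untreated graft, and unwounded skin had 21.3%. The thinned ratio was 1.47 at day 90, with an interval of 0.838 to 2.53 that includes 1. It was 0.808 at day 7 (0.675 to 0.968).

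**Figure D1:**
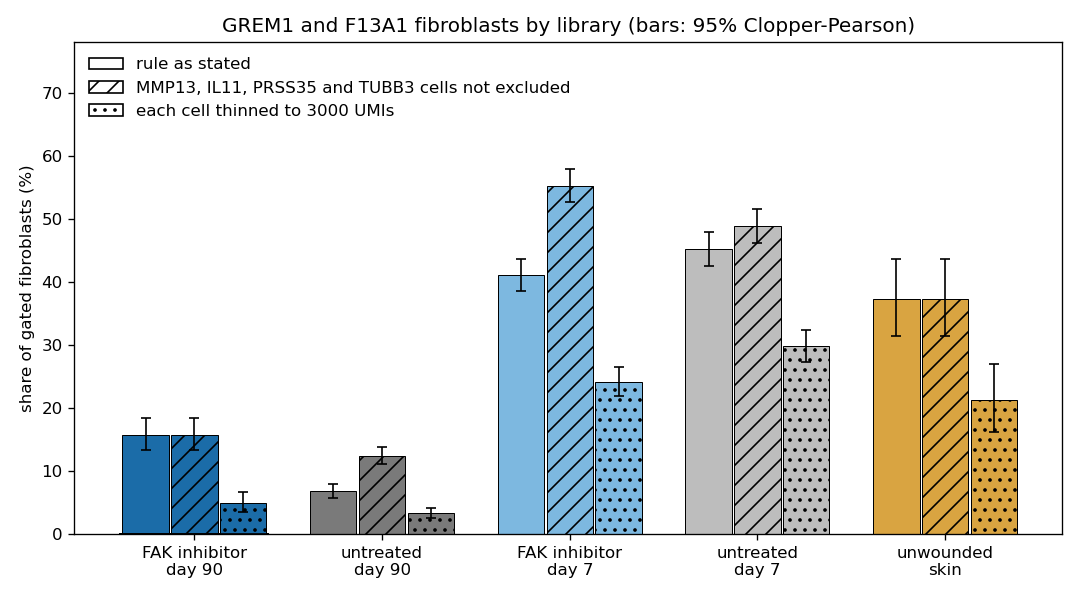
Share of GREM1 and F13A1 fibroblasts among gated fibroblasts (vertical axis, percent) in the 5 libraries (horizontal axis), by the stated rule, without the exclusion of MMP13, IL11, PRSS35 and TUBB3 cells, and after thinning to 3000 UMIs; error bars are 95% Clopper-Pearson intervals. Day 7 grafts and unwounded skin lie at 37.4% or above by the stated rule, and the day 90 grafts at 15.8% or below.

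GREM1 was found more often in gated fibroblasts with F13A1 than in those without it. It was detected in 62.5% of gated fibroblasts with F13A1 and 13.3% of those without it in the FAK inhibitor graft at day 90, and in 30.7% and 5.72% in the untreated graft at day 90. At day 7 these shares were 48.9% with F13A1 and 7.44% without it in the FAK inhibitor graft, and 65.4% and 7.00% in the untreated graft. In unwounded skin they were 57.5% and 12.5%. After thinning to 3000 UMIs the share with F13A1 was still above the share without it in each of the 5 libraries, with 24.7% against 10.6% in unwounded skin, where the intervals overlapped (16.2 to 35.0 and 6.18 to 16.6). Endothelial cells picked by VWF held a GREM1 UMI in 0.0816% to 0.685% of cells per library at median depths of 7445 to 10522 UMIs, and an F13A1 UMI in 0.0816% to 1.93%. F13A1 was also found in leukocytes picked by PTPRC, at 148 to 372 CPM, where GREM1 did not pass 1.81 CPM.

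Members with GREM1 alone took a larger share in the day 90 grafts than in the other libraries. Both genes were detected in 54.7% of members in the FAK inhibitor graft and 54.4% in the untreated graft at day 90, in 67.4% in the FAK inhibitor graft and 75.8% in the untreated graft at day 7, and in 66.7% in unwounded skin. Cells with GREM1 alone made up 23.4% of members in the FAK inhibitor graft at day 90 and 15.4% in the untreated graft at day 90, against 1.16% and 1.91% in the same grafts at day 7 and 4.17% in unwounded skin. In the FAK inhibitor graft at day 90, MGP, a calcification inhibitor of vessel wall and cartilage, was at 7587 CPM in the 30 cells with GREM1 alone, at 1939 CPM in the 70 cells with both genes, at 615 CPM in the 28 cells with F13A1 alone and at 7212 CPM in gated fibroblasts with neither. LAMC3, a laminin chain of basement membranes, was at 45.6 CPM in the cells with GREM1 alone there, against 231 CPM in the cells with both. Cells at the threshold of 3 UMIs numbered 27, 21, 70, 50 and 7 in the FAK inhibitor and untreated grafts at day 90, the FAK inhibitor and untreated grafts at day 7, and unwounded skin. Cells just below it, with 2 UMIs, numbered 31, 41, 65, 58 and 9.

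GREM1 stood at 173 CPM in members of the FAK inhibitor graft at day 90, 322 CPM in the untreated graft at day 90, 203 CPM in the FAK inhibitor graft at day 7, 325 CPM in the untreated graft at day 7 and 128 CPM in unwounded skin. F13A1 stood at 359, 468, 638, 833 and 740 CPM in the same order of libraries. Members of untreated grafts thus had the higher GREM1 level at both times, and F13A1 was lower at day 90 than in the other 3 libraries.

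Of the 3 genes in the label that the rule did not use, only FAP was above the other gated fibroblasts by 1.5-fold in each of the 5 libraries. FAP had 245 CPM in members and 150 CPM in other gated fibroblasts of the FAK inhibitor graft at day 90 (ratio 1.63, interval 1.48 to 1.80), and 283 CPM and 183 CPM in the untreated graft at day 90 (1.54, 1.43 to 1.67). It had 540 CPM in members and 213 CPM in others of the FAK inhibitor graft at day 7 (2.54, 2.37 to 2.71), 517 CPM and 198 CPM in the untreated graft at day 7 (2.61, 2.45 to 2.79), and 288 CPM and 127 CPM in unwounded skin (2.27, 1.93 to 2.69). PDPN was higher in members of the untreated graft at day 90 (525 CPM against 120 CPM in others), the FAK inhibitor graft at day 7 (524 against 261 CPM) and the untreated graft at day 7 (459 against 210 CPM). In the FAK inhibitor graft at day 90 PDPN was at 150 CPM in members and 112 CPM in others, and in unwounded skin at 91.3 CPM in members and 108 CPM in others. SPON2 was higher in members at day 7 only by this rule, with 1929 against 1153 CPM in the FAK inhibitor graft and 1681 against 1000 CPM in the untreated graft. It was at 808 CPM in members and 968 CPM in others of the FAK inhibitor graft at day 90, 1047 and 878 CPM in the untreated graft at day 90, and 576 and 608 CPM in unwounded skin. Deeper cells hold more UMIs of any gene, but after thinning FAP was still detected in more members than others in each library, with 61.5% against 34.5% of cells in unwounded skin.

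**Figure D2:**
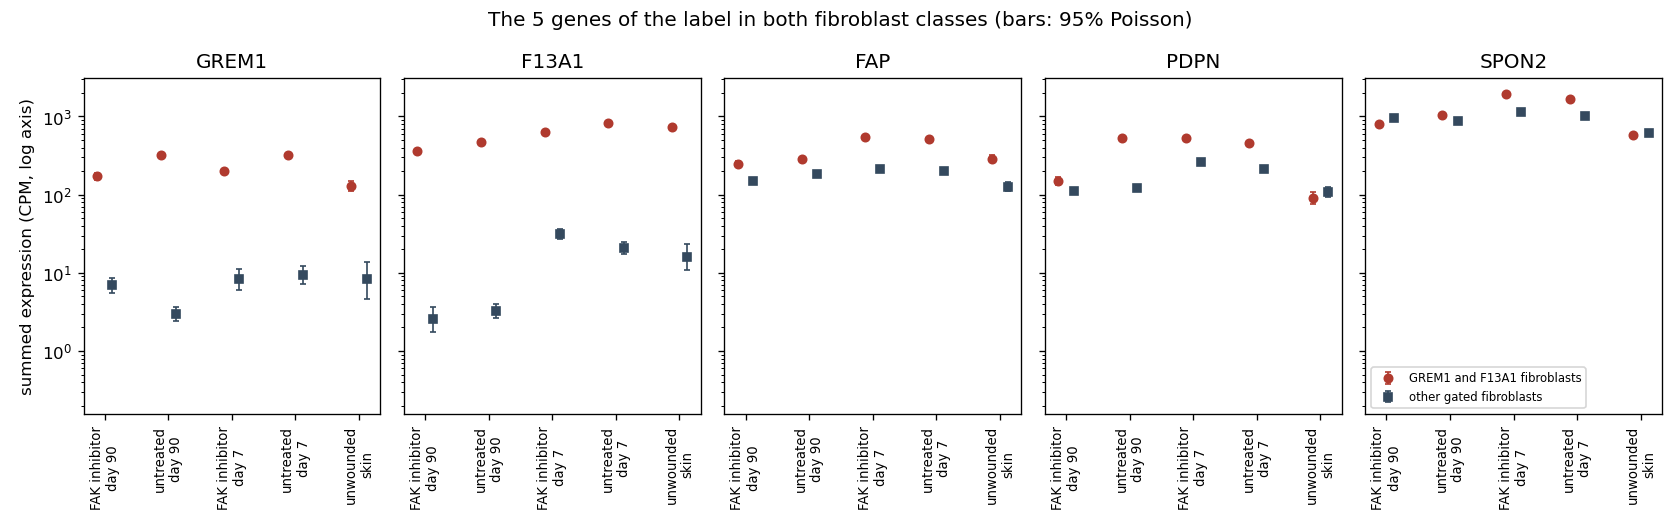
Summed expression (vertical axis, CPM, log axis) of the 5 genes in the label in GREM1 and F13A1 fibroblasts (circles) and other gated fibroblasts (squares) in each library (horizontal axis), with 95% Poisson intervals. GREM1 and F13A1 differ by the rule; FAP is above the other fibroblasts in all 5 libraries, and PDPN and SPON2 are not in unwounded skin, where PDPN is at 91.3 CPM in members and 108 CPM in others.

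A common set of genes marked the members in wounds and in unwounded skin alike. Of 1650 genes that reached 50 CPM in either class in all 5 libraries, 28 (1.70%) were at least 1.5-fold higher in members and 18 (1.09%) at least 1.5-fold lower in every library. Within single libraries the shares of genes higher and lower in members were 8.52% and 5.57% in the FAK inhibitor graft at day 90, 12.3% and 7.54% in the untreated graft at day 90, 9.78% and 6.26% in the FAK inhibitor graft at day 7, 10.4% and 7.83% in the untreated graft at day 7, and 15.5% and 10.9% in unwounded skin. Higher genes included the surface enzymes DPP4, a dipeptidyl peptidase, and NT5E, which makes adenosine. CYP26B1, which degrades retinoic acid, WNT5A, a Wnt ligand, PTK7, a Wnt co-receptor, and VEGFD, a growth factor of lymphatic vessels, were higher as well. LAMC3, the complement component C3, the prostaglandin E synthase PTGES, the scavenging chemokine receptor ACKR4, the hyaluronan receptor CD44 and the calcium-binding protein S100A4 completed the genes of known role named here.

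DPP4 had 81.1 CPM in members and 11.6 CPM in other gated fibroblasts of the FAK inhibitor graft at day 90, and 74.9 and 10.9 CPM in the untreated graft at day 90. It had 214 and 37.1 CPM in the FAK inhibitor graft at day 7, 216 and 23.7 CPM in the untreated graft at day 7, and 72.9 and 5.001 CPM in unwounded skin. The member level was thus about the same in day 90 grafts and unwounded skin, and the ratios ran between 5.77 and 14.6. CYP26B1 had 130 and 20.3 CPM in members and others of the FAK inhibitor graft at day 90, 82.0 and 7.96 CPM in the untreated graft at day 90, 264 and 53.6 CPM in the FAK inhibitor graft at day 7, 377 and 47.9 CPM in the untreated graft at day 7, and 201 and 33.3 CPM in unwounded skin. LAMC3 was highest in members of unwounded skin (280 CPM, against 76.1 CPM in others) and of the FAK inhibitor graft at day 90 (184 against 19.8 CPM). It was at 70.5 against 2.16 CPM in the untreated graft at day 90, 78.05 against 12.3 CPM in the FAK inhibitor graft at day 7 and 54.8 against 6.34 CPM in the untreated graft at day 7. S100A4 had 5430 CPM in members and 1247 CPM in others of the FAK inhibitor graft at day 90, and 7531 and 1307 CPM in unwounded skin, the lowest member level being 3287 CPM in the untreated graft at day 7.

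The genes lower in members in every library included the small leucine-rich proteoglycans OGN, FMOD and ASPN, the elastic fibre proteins MFAP5 and FBLN1, MGP, the secreted Wnt modulators SFRP2 and SFRP4, the collagen-associated CTHRC1 and the actin-binding TAGLN. MGP had 3348 CPM in members and 6984 CPM in others of the FAK inhibitor graft at day 90, and 3322 and 9360 CPM in the untreated graft at day 90. At day 7 the gap was wider, with 272 and 8067 CPM in the FAK inhibitor graft and 450 and 5407 CPM in the untreated graft, and in unwounded skin MGP had 959 and 5629 CPM. SFRP2 had 869 CPM in members and 3322 CPM in others of the FAK inhibitor graft at day 90, 867 and 8901 CPM in the untreated graft at day 90, 431 and 3513 CPM in the FAK inhibitor graft at day 7, 464 and 4213 CPM in the untreated graft at day 7, and 5.16 and 88.4 CPM in unwounded skin. SFRP4 was below 20 CPM in members of both day 7 grafts (11.7 and 16.1 CPM, against 498 and 876 CPM in others). These counts were 13 higher and 11 lower where MMP13, IL11, PRSS35 and TUBB3 cells were not set apart, and 11 were higher where GREM1 alone defined members.

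**Figure D3:**
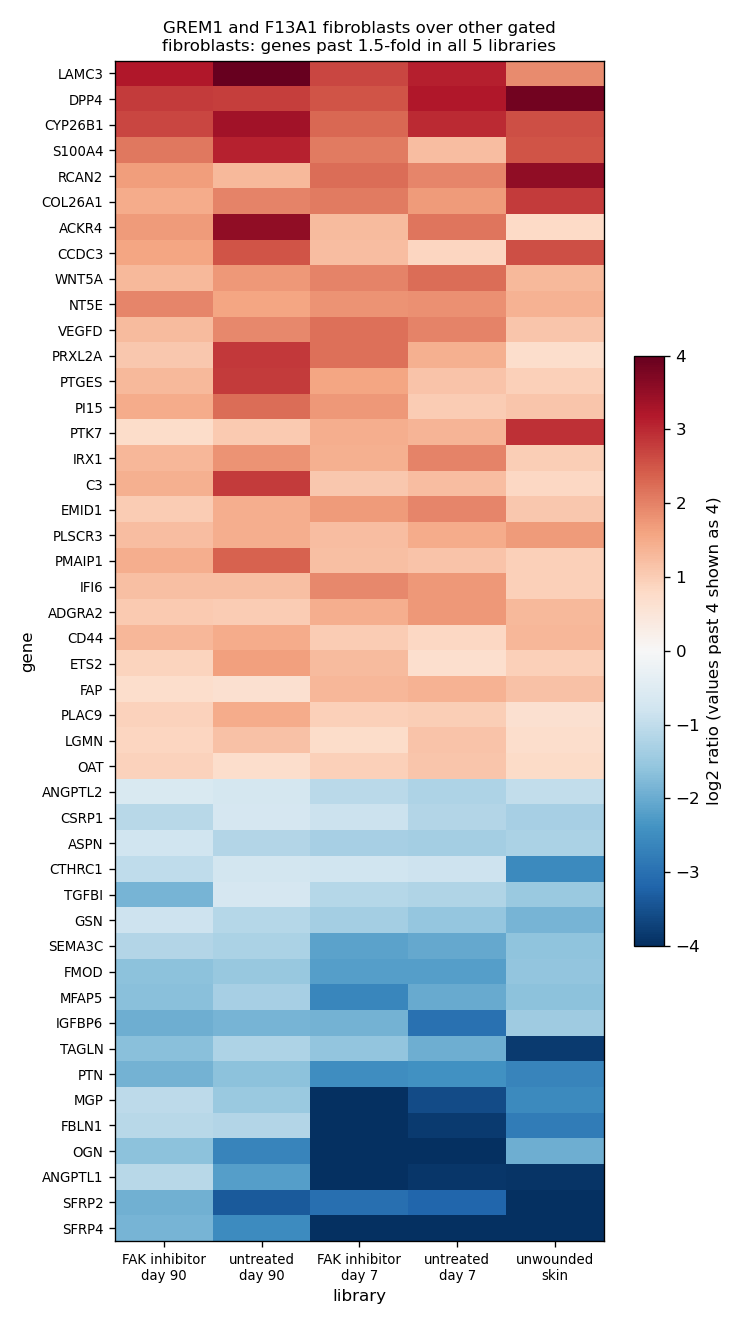
Log2 ratio of GREM1 and F13A1 fibroblasts over other gated fibroblasts (colour) for the 28 genes higher and 18 genes lower by at least 1.5-fold in all 5 libraries (rows), by library (columns). Red marks a higher level in members, from genes such as LAMC3, DPP4 and CYP26B1 at the top, and blue a lower one.

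Among the lists of genes grouped by role, surface proteins of activated fibroblasts leaned towards members. Of 12 such genes at 50 CPM, 6 were higher and 1 lower in members of the FAK inhibitor graft at day 90, 8 and 1 in each of the other 3 grafts, and 4 and 2 in unwounded skin. The growth factor receptor PDGFRA was at 176 CPM in members and 84.6 CPM in others of the FAK inhibitor graft at day 90, 213 and 71.5 CPM in the untreated graft at day 90, 338 and 138 CPM in the FAK inhibitor graft at day 7, 364 and 182 CPM in the untreated graft at day 7, and 241 and 168 CPM in unwounded skin. ITGA11, an integrin chain for collagen, was the gene lower in members of each graft. Genes of tendon and cartilage were mostly lower in members, CPXM2 being higher in each graft. The lower ones were 5 of 7 in the FAK inhibitor graft and 7 of 8 in the untreated graft at day 90, 6 of 7 in the FAK inhibitor graft and 4 of 5 in the untreated graft at day 7, and 2 of 3 in unwounded skin. At day 7 they included THBS4 (16.3 CPM in members against 467 CPM in others of the FAK inhibitor graft, and 16.2 against 476 CPM in the untreated graft). THBS4 was at 9.57 CPM in members and 2.22 CPM in others of unwounded skin, under the level needed for a call. Contractile genes were lower by 8 of 9 in the FAK inhibitor graft at day 90, 2 of 9 in the untreated graft at day 90, 2 of 9 in the FAK inhibitor graft at day 7, 5 of 9 in the untreated graft at day 7 and 1 of 7 in unwounded skin.

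Some genes that were higher in members than in other fibroblasts at day 7 were not higher in every other library. CFD, the complement protease factor D, had 2102 CPM in members and 500.1 CPM in others of the FAK inhibitor graft at day 90, and 3773 and 190 CPM in the untreated graft at day 90. It had 3752 and 479 CPM in members and others of the FAK inhibitor graft at day 7 and 2590 and 266 CPM in the untreated graft at day 7. In unwounded skin CFD was lower in members (2267 against 3003 CPM), though by less than 1.5-fold. CRABP1, a carrier of retinoic acid, had 1553 and 210 CPM in members and others of the FAK inhibitor graft at day 7 and 1892 and 368 CPM in the untreated graft at day 7. It was also higher in members of unwounded skin (957 against 428 CPM in others). At day 90 it had 1799 CPM in members and 1829 CPM in others of the FAK inhibitor graft, and 1185 and 1492 CPM in the untreated graft. IGFBP2, which binds insulin-like growth factors, had 1536 and 294 CPM in members and others of the FAK inhibitor graft at day 7 and 1264 and 188 CPM in the untreated graft at day 7. It was lower in members than in others of unwounded skin (0.736 against 33.9 CPM) and of the FAK inhibitor graft at day 90 (114 against 503 CPM). In the untreated graft at day 90 it was at 937 CPM in members and 1128 CPM in others.

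Interferon-response genes were higher in members of the FAK inhibitor graft at day 7. Of 2312 genes tested, 84 (3.63%) were at least 1.5-fold higher and 76 (3.29%) at least 1.5-fold lower in members of the FAK inhibitor graft, against 114 higher and 60 lower with median-of-ratios scaling. Of 13 interferon-response genes at 50 CPM, 12 were higher and 0 lower, with a median log2 ratio of 1.05 against 0.03 over all genes tested. Other gated fibroblasts had the same direction, with 13 of 13 higher and a median of 1.64, so the difference was not limited to members. CXCL10, a chemokine that draws T cells through CXCR3, had 904 CPM in members of the FAK inhibitor graft and 11.95 CPM in members of the untreated graft (ratio 75.6, interval 61.8 to 93.5). It was detected in 29.1% of members of the FAK inhibitor graft and 4.31% of members of the untreated graft. IRF1, an interferon-induced transcription factor, had 523 CPM in the FAK inhibitor graft and 192 CPM in the untreated graft. The immunoproteasome subunit PSMB9 had 122 CPM and 26.9 CPM in the same grafts and a UMI in 37.2% and 22.5% of members. CXCL9, a further CXCR3 ligand, had 73.2 CPM in the FAK inhibitor graft and 0.623 CPM in the untreated graft, but 5 cells held 95.4% of its UMIs in the FAK inhibitor graft. The interferon difference was not limited to day 7. At day 90 the median log2 ratio of the list in members, FAK inhibitor over untreated graft, was also 1.05 (0.77 to 1.89 over the alternative settings). For untreated grafts, day 90 over day 7, it was -1.05.

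SERPINE2, a protease inhibitor that blocks thrombin and plasminogen activators, had 120 CPM in members of the FAK inhibitor graft at day 7 and 7.22 CPM in members of the untreated graft (ratio 16.6, interval 12.8 to 22.1), with a ratio of 1.61 in other gated fibroblasts. It was detected in 16.4% of members in the FAK inhibitor graft and 5.74% in the untreated graft. SERPINE2 is on the gene list for fibroblasts with IL11 and MMP13. The median log2 ratio of that list in members was 1.2 at day 7 and -2.6 at day 90. Gated fibroblasts set apart by MMP13, IL11, PRSS35 and TUBB3 numbered 309 with the FAK inhibitor and 148 untreated at day 7. At day 90 they numbered 7 and 246. The part of similar cells left among members was not tested. Of 13 chemokines and cytokines, 6 were higher and 2 lower in members of the FAK inhibitor graft. CXCL8, which draws neutrophils, had 810 CPM in the FAK inhibitor graft and 368 CPM in the untreated graft, IL6 had 484 CPM and 258 CPM, and CSF3, which supports neutrophils, had 82.3 CPM and 11.1 CPM. HPS5 had 1698 CPM and 233 CPM in these grafts; its locus lies next to serum amyloid A genes in mammals, and which RNA its counts stand for was not tested.

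Genes lower in members of the FAK inhibitor graft at day 7 included single matrix and hyaluronan genes. Matrix genes as lists differed little, with a median log2 ratio of -0.06 for collagens and -0.20 for wound matrix and crosslinking genes. HAS1, a hyaluronan synthase, had 34.3 CPM in the FAK inhibitor graft and 158 CPM in the untreated graft, a ratio of 0.217 in members and 0.298 in other gated fibroblasts. COL6A5 and COL6A6, chains of microfibrillar type VI collagen, had 39.7 and 23.7 CPM in the FAK inhibitor graft, and 133 and 79.7 CPM in the untreated graft. Their ratios in other gated fibroblasts were 0.785 and 0.564. COL14A1, which associates with collagen fibrils, had 180 CPM in the FAK inhibitor graft and 429 CPM in the untreated graft. The plasma protein tetranectin (CLEC3B) had 23.3 CPM and 88.3 CPM, and the Wnt inhibitor WIF1 had 21.9 CPM and 67.4 CPM in the same grafts. CLEC3B and WIF1 had ratios of 1.12 and 0.524 in other gated fibroblasts. CCL4, KRT5 and FABP4 were also among the 10 lowest ratios, but 5 cells held 92.4%, 76.5% and 69.3% of their UMIs in the untreated graft, and CCL4 and KRT5 reversed under an alternative choice of cells. Of 13 focal adhesion genes, 0 were higher and 0 lower.

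**Figure D4:**
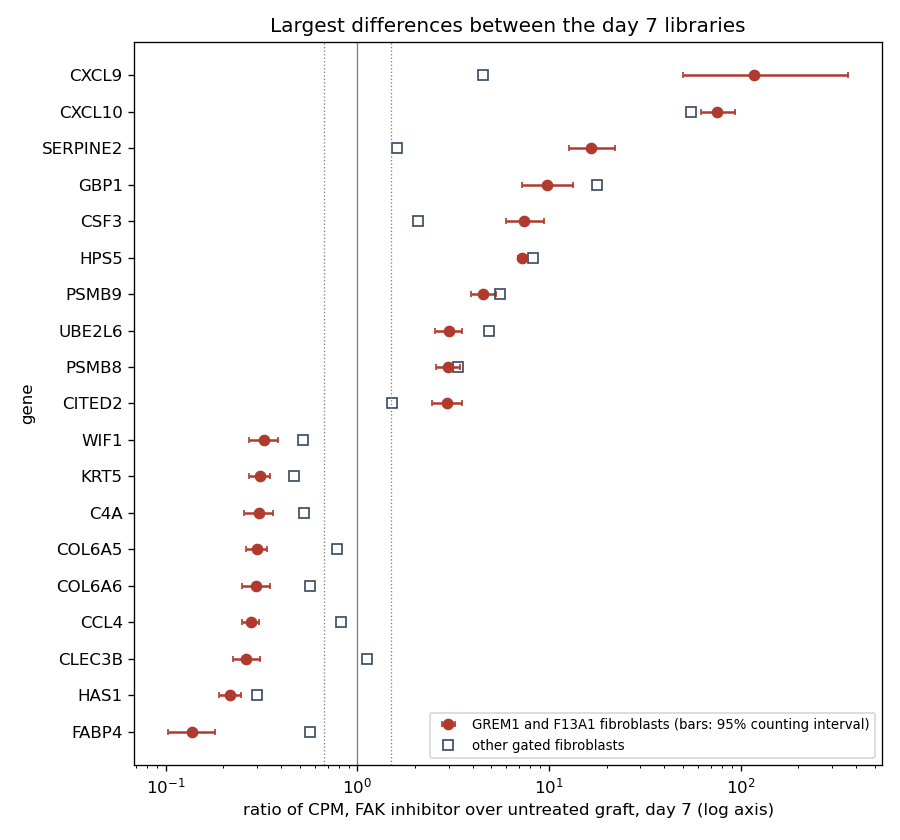
Ratio of CPM between the FAK inhibitor graft and the untreated graft at day 7 (horizontal axis, log axis) for genes among the 10 highest and the 10 lowest ratios in GREM1 and F13A1 fibroblasts (filled circles, 95% counting intervals) and the same genes in other gated fibroblasts (open squares). CXCL10 and GBP1 are shared by both classes, whereas SERPINE2 has a ratio of 16.6 in members and 1.61 in others; the dotted lines mark 1.5-fold.

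At day 90 members of the FAK inhibitor graft had less RNA of inflammatory and contractile genes than members of the untreated graft. Of 2242 genes tested, 219 (9.77%) were higher and 281 (12.5%) lower in the FAK inhibitor graft, against 119 and 69 of 2064 in other gated fibroblasts. The members were 128 and 149 cells in the FAK inhibitor and untreated grafts, and the others 676 and 1790 cells. The part of these cell numbers in the counts was not tested. Of 10 chemokines and cytokines, 2 were higher and 6 lower (median log2 ratio -1.27, against -0.10 over all genes tested, and -0.34 with GREM1 alone and -2.15 with F13A1 alone defining members), while in other gated fibroblasts 5 of 8 were higher and 1 lower. IL6 had 51.8 CPM in the FAK inhibitor graft and 411 CPM in the untreated graft, CXCL8 had 21.0 and 165 CPM, and the chemokine CCL19 had 665 and 2329 CPM. CXCL12, the CXCR4 ligand, went the other way with 517 CPM in the FAK inhibitor graft and 170 CPM in the untreated graft. A few cells weighed on this, since 5 cells held 58.5% of IL6 UMIs in the FAK inhibitor graft and 33.9% in the untreated graft, where IL6 was detected in 20.3% and 43.0% of members. Interferon-response genes were higher in the FAK inhibitor graft at day 90, with a median log2 ratio of 1.05.

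Of 9 contractile genes, 0 were higher and 8 lower in members of the FAK inhibitor graft at day 90. The myosin light chain MYL9 had 26.9 CPM in the FAK inhibitor graft and 72.7 CPM in the untreated graft, the tropomyosins TPM1 and TPM2 had 158 and 159 CPM in the FAK inhibitor graft and 415 and 444.5 CPM in the untreated graft, and TAGLN had 292 and 732 CPM. In other gated fibroblasts 5 of 9 were lower and 0 higher. This did not hold for every definition of the members: with GREM1 alone at 3 UMIs the median log2 ratio was 0.11, against -0.93 by the stated rule. In the untreated graft smooth muscle actin (ACTA2) was at 704 CPM in members with F13A1 alone and 12.8 CPM in members with both genes. TNC, a matrix glycoprotein of wounds and tendon, had 155 CPM in the FAK inhibitor graft and 638 CPM in the untreated graft. FST, an antagonist of activins, had 106 CPM in the FAK inhibitor graft and 21.1 CPM in the untreated graft, and APCDD1, a membrane inhibitor of Wnt signals, had 151 and 43.0 CPM. The myosin kinase MYLK, CLDN5 and SCG3 also ranked high or low, but 5 cells held 89.5% of MYLK UMIs in the FAK inhibitor graft and all UMIs of CLDN5 and SCG3 in the untreated graft, and all 3 reversed under an alternative choice of cells.

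Between day 90 and day 7 in untreated grafts, genes of tendon and cartilage and genes of unwounded and adventitial dermis were higher in members at day 90. Of 2337 genes tested, 183 (7.83%) were higher and 372 (15.9%) lower at day 90, with a median log2 ratio of -0.18. In other gated fibroblasts 186 of 2270 genes were higher and 362 lower. Ratios there were 4.06 for COL11A1, 4.52 for COL8A1, 4.44 for THBS4, 0.930 for TNXB and 0.166 for CYP26B1. Of 17 genes on the list for unwounded dermis and adventitia, 10 were higher and 1 lower at day 90, with a median log2 ratio of 0.88 that was 0.29 without the exclusion of MMP13, IL11, PRSS35 and TUBB3 cells. PI16, a marker of adventitial fibroblasts, had 992 CPM at day 90 and 357 CPM at day 7, CLEC3B had 613 and 88.3 CPM, and TNXB, the matrix protein tenascin X, had 232 and 27.8 CPM. The matrix genes COL11A1 (294 CPM at day 90 and 12.9 CPM at day 7), COL8A1 (178 and 15.3 CPM), THBS4 (293 and 16.2 CPM) and COL14A1 (1448 and 429 CPM) were higher too. COL11A1 and THBS4 are on the list for tendon and cartilage. The median log2 ratio of that list was 2.90 (2.11 to 3.30 over the alternative settings), above that of the dermis and adventitia list. Cells with the highest levels weighed on some of these: 5 cells held 50.6% of THBS4 UMIs and 17.3% of TNXB UMIs at day 90. Of 11 chemokines and cytokines, 3 were higher and 6 lower at day 90, among them CXCL8 (165 CPM at day 90 and 368 CPM at day 7), CCL2, which draws monocytes (771 and 1606 CPM), and CXCL14 (1138 and 2386 CPM). Of 11 immediate early genes, which respond to stimulation and also to dissociation, 7 were higher and 0 lower at day 90. CYP26B1 was lower, with 82.0 CPM at day 90 and 377 CPM at day 7.

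In FAK inhibitor grafts 368 of 2424 genes (15.2%) were higher and 846 (34.9%) lower in members at day 90 than at day 7, with a median log2 ratio of -0.33 over all genes tested. In other gated fibroblasts 276 of 2297 genes were higher and 703 lower. Among the highest ratios were CLEC3B (1303 CPM at day 90 and 23.3 CPM at day 7) and TNXB (395.5 and 11.7 CPM). The lowest included CXCL10 (7.82 and 904 CPM), CSF3 (0.489 and 82.3 CPM) and CXCL8 (21.0 and 810 CPM). Both time comparisons used different libraries at each end, but the day 7 and day 90 members also differed in the mix of GREM1 and F13A1 cells described above, and its part in these ratios was not tested.

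Set against unwounded skin, members of the untreated graft at day 7 had more chemokine, contractile and secretory RNA. Of 2470 genes tested, 760 (30.8%) were higher and 412 (16.7%) lower in the graft, with a median log2 ratio of 0.27. In other gated fibroblasts 937 of 2404 genes were higher and 446 lower. Several genes named below were higher there too, with ratios of 27.0 for CXCL8, 10.8 for TAGLN, 5.55 for IGFBP2, 5.91 for IGFBP4 and 7.92 for PRDM1. Of 11 chemokines and cytokines 9 were higher and 0 lower, among them CXCL8 (368 CPM in the graft and 5.16 CPM in unwounded skin), IL6 (258 and 30.2 CPM) and IL33, an alarmin (160 and 9.57 CPM). Of 8 contractile genes 7 were higher and 0 lower, with TAGLN at 231 CPM in the graft and 5.89 CPM in unwounded skin. Of 20 secretory pathway genes 10 were higher and 1 lower, among them the translocon subunit SEC61B (959 and 393 CPM) and the chaperone CALR (643 and 303 CPM). IGFBP2 was at 1264 CPM in the graft and, with 1 UMI, 0.736 CPM in unwounded skin. IGFBP4 was at 330 and 2.21 CPM and the transcription factor PRDM1 at 87.8 and 0.736 CPM. Of the label's genes, FAP (517 and 288 CPM), PDPN (459 and 91.3 CPM) and SPON2 (1681 and 576 CPM) were higher in the graft.

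Members of unwounded skin had more RNA of immediate early genes and of many genes on the list for unwounded dermis and adventitia. Of 12 immediate early genes 0 were higher and 8 lower in the untreated graft at day 7, with FOS at 806 CPM in the graft and 4074 CPM in unwounded skin. Of 19 genes of unwounded dermis and adventitia 3 were higher and 11 lower in the graft. Of 12 collagen genes 0 were higher and 4 lower. CLEC3B had 88.3 CPM in the graft and 1536 CPM in unwounded skin, and TNXB had 27.8 and 314 CPM. Of genes not on the dermis and adventitia list, COL14A1 had 429 CPM in the graft and 2238 CPM in unwounded skin, and PENK, the proenkephalin gene, had 44.8 and 715 CPM. LEPR, the leptin receptor, had 4.73 CPM in the graft and 53.0 CPM in unwounded skin. Other gated fibroblasts had lower levels in the graft as well, with ratios of 0.0994 for CLEC3B, 0.320 for TNXB, 0.0936 for PENK and 0.075 for LEPR. The unwounded skin library stood apart in keratin RNA: 5 of its 96 members held 1610 of 1695 keratinocyte UMIs, the summed level being 1248 CPM in members and 115 CPM in others. Without members that held 10 or more UMIs of other cell types, 765 genes were higher and 401 lower in the graft.

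Against the same skin library, members of the FAK inhibitor graft at day 90 differed in fewer genes, with 159 of 2215 (7.18%) higher and 223 (10.1%) lower, a split that was 193 higher and 162 lower with median-of-ratios scaling. Members of the untreated graft at day 90 had 430 of 2368 (18.2%) higher and 445 (18.8%) lower. Both comparisons share the skin library and differ in cell numbers, with 128 members in the FAK inhibitor graft and 149 in the untreated graft, and the difference between these counts was not tested. The same order held in other gated fibroblasts, so it was not limited to members. There 357 of 2168 genes were higher and 369 lower in the FAK inhibitor graft. In the untreated graft 659 of 2298 were higher and 490 lower. For members, CLEC3B was at 1303 CPM in the FAK inhibitor graft at day 90, 613 CPM in the untreated graft at day 90 and 1536 CPM in unwounded skin. TNC was at 155, 638 and 15.5 CPM, PRDM1 at 9.29, 54.2 and 0.736 CPM, and APCDD1 at 151, 43.0 and 386 CPM in the same 3 libraries.

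**Figure D5:**
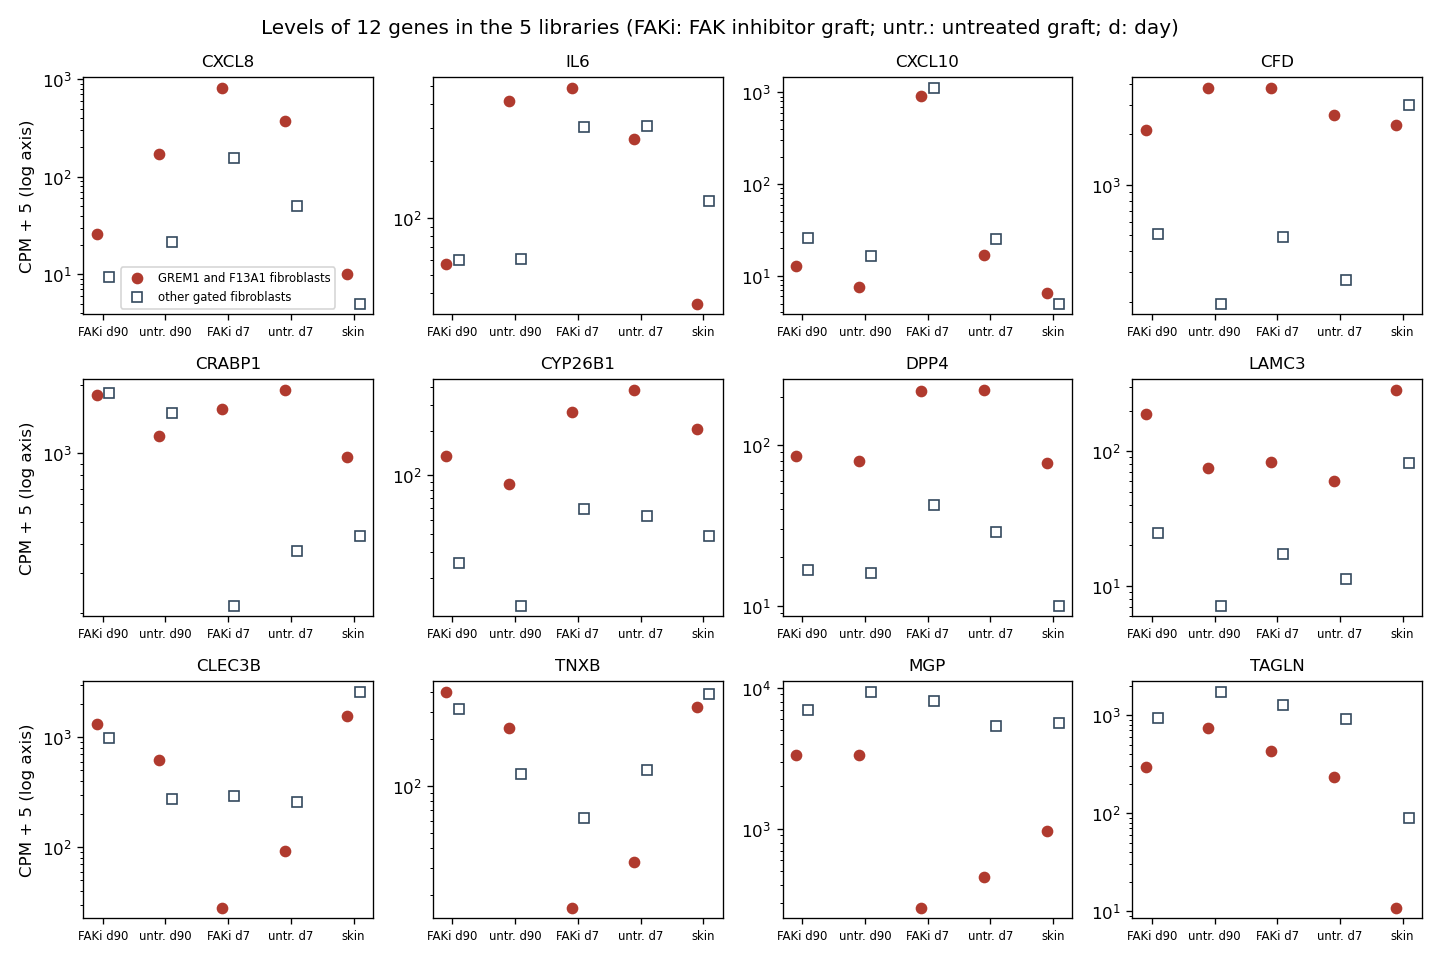
Levels of 12 genes (vertical axes, CPM with 5 added, log axes) in GREM1 and F13A1 fibroblasts (filled circles) and other gated fibroblasts (open squares) in the 5 libraries (horizontal axes). CXCL8 peaks at day 7 in members (810 CPM in the FAK inhibitor graft), CXCL10 is high in both classes of the FAK inhibitor graft at day 7, and CLEC3B and TNXB are low in members of both day 7 grafts; DPP4, CYP26B1 and LAMC3 are above the other fibroblasts in every library, and MGP and TAGLN below.

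Few genes of the BMP pathway around GREM1 reached the level needed for a comparison. Of 9 BMP receptor genes measured, 0 reached 50 CPM, with BMPR1A at 24.6 to 35.7 CPM in members. Among BMP antagonists and modulators other than GREM1, FST was lower (34.9 CPM in the FAK inhibitor graft and 61.4 CPM in the untreated graft at day 7) and FSTL1, a secreted modulator, did not pass the rule, at 476 and 598 CPM. Of 5 BMP response genes at 50 CPM, MSX1, a homeobox target, was higher in the FAK inhibitor graft (54.4 CPM) than in the untreated graft (18.7 CPM) at day 7, and ID1 was at 161 and 124 CPM. At day 90 MSX1 was lower, at 13.7 CPM in the FAK inhibitor graft and 58.2 CPM in the untreated graft.

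Around F13A1, 10 genes of fibrin formation and removal reached 50 CPM in the day 7 comparison, among them SERPINE2, which was higher in members of the FAK inhibitor graft. SERPINE2 does not stand for the list, whose median log2 ratio was 0.29, within 1.5-fold. TFPI2, an inhibitor of the tissue factor pathway and of plasmin, was at 1023 CPM in members and 525.5 CPM in others of the FAK inhibitor graft at day 90, 903 and 327 CPM in the untreated graft at day 90, 1737 and 486 CPM in the FAK inhibitor graft at day 7, 1677 and 594 CPM in the untreated graft at day 7, and 559 and 459 CPM in unwounded skin. PLAU, the urokinase activator of plasminogen, was at 237 CPM in members of the FAK inhibitor graft and 104 CPM in members of the untreated graft at day 90, and at 192 and 177 CPM in the same grafts at day 7.

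Markers of other cell types were also detected in members. Of 9 markers of T and NK cells, the summed level was 3.42 CPM in the FAK inhibitor graft and 2.23 CPM in the untreated graft at day 90, 107 CPM and 94.9 CPM in the same grafts at day 7, and 2.21 CPM in unwounded skin, with CD3G at 0 in all of them and CD3D, CD3E, CD2, GZMA, IL7R and LCK at 0 in day 90 grafts and unwounded skin. Most of the day 7 sums came from the chemokine CCL5, at 76.3 CPM in the FAK inhibitor graft and 82.7 CPM in the untreated graft. Endothelial markers summed to 36.7 CPM in members of the FAK inhibitor graft at day 90, 111 CPM in the untreated graft at day 90, of which 5 cells held 244 of 299 UMIs, 19.6 and 34.3 CPM in the FAK inhibitor and untreated grafts at day 7, and 49.3 CPM in unwounded skin. Keratinocyte markers summed to 56.7 and 42.3 CPM in the FAK inhibitor and untreated grafts at day 90, and to 200 and 464.5 CPM at day 7, against the 1248 CPM given above for unwounded skin. The 17 myeloid markers, which include the widely expressed CD74, summed to 2129 CPM in members and 1846 CPM in others of the FAK inhibitor graft at day 90, 2321 and 2175 CPM in the untreated graft at day 90, 2997 and 2949 CPM in the FAK inhibitor graft at day 7, 2941 and 3128 CPM in the untreated graft at day 7, and 1731 and 1364 CPM in unwounded skin. LYZ was at 0 in members of all 5 libraries, and C1QA, C1QB, CD163, MRC1, MSR1 and TYROBP were at 0 in members of unwounded skin. Without members that held 10 or more UMIs of keratinocyte, endothelial, T or NK, mast, Schwann or melanocyte markers, 83 genes were higher and 75 lower in the FAK inhibitor graft at day 7, and the median of the interferon list was 1.35. C1QB, a complement gene of macrophages, was at 37.0 CPM in members with F13A1 alone and 2.29 CPM in members with both genes of the untreated graft at day 7. The part of myeloid RNA in the differences between libraries was not tested.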

How the data were processed

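The authors deposited 5 matrices of whole-number UMI counts per gene and cell barcode. Cell Ranger and Seurat 3.1.1 are named per the submitters' processing notes, and the matrices carry software version 3.1.0, per the file headers. The genome build was not given in the sources used here. Gene symbols were found for 15344 of the 20286 identifiers, with 670 coming from a separate symbol table. For each library, the UMIs of all cells in a class were added up and divided by their total to give CPM. Intervals at 95% were exact Poisson for levels, Clopper-Pearson for shares and conditional binomial for ratios of levels, while a ratio of shares took the opposite bounds of its 2 shares, and they cover counting error only. In ratios a sum of 0 was set to a floor of 3 counts per library, and no ratio was given where both sums were at or under it.

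The members and the gene lists (37 lists, 511 of 554 genes measured) were chosen with earlier results of these data known. Genes were named by rule: the label's markers, the 10 highest and 10 lowest ratios of a comparison between libraries with an interval wholly past 1.5-fold, the 20 highest and 10 lowest of members over other fibroblasts by the smaller day 7 ratio, and up to 4 genes of a list, by level or past 1.5-fold. Further genes named in the text were chosen after their values were seen, and some genes that the rule names are not reported here. Gene counts between treatments at day 90, between times in FAK inhibitor grafts, against unwounded skin and over all 5 libraries were added to the comparisons first laid down. Doublets were scored with Scrublet, whose automatic threshold called between 1 and 79 cells per library, and were kept. One alternative removed the highest scores at 0.8% per 1000 cells and cells over 25% mitochondrial UMIs. Other alternatives changed the gate, the GREM1 and F13A1 rule, depth, scaling and the filter on low levels. On simulated counts for the day 7 treatment comparison, with 2162 genes, all 200 changed genes were called and 0 others. The simulated sums had Poisson error only, without spread between cells or libraries, and every planted change was well past 1.5-fold. This outcome was thus nearly fixed in advance and does not show how accurate the calls are. How frequent wrong calls are in the measured counts, with 1 library per group, was not tested. The tools were Scanpy 1.11.5, SciPy 1.17.1, NumPy 2.4.6, pandas 2.3.3 and Matplotlib 3.10.9 under Python 3.11.15.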

Additional observations from a re-analysis of the deposited data

Results flagged for a closer look

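The share of GREM1 and F13A1 fibroblasts among gated fibroblasts lay on opposite sides of 1 for the FAK inhibitor over the untreated graft, with ratios of 2.31 at day 90 and 0.909 at day 7. The difference between the times was not tested, and the interval of the day 7 ratio includes 1. Among the genes named by rule for the treatment comparisons, 8 had ratios past 1.5-fold in opposite directions at the 2 times in members. These differences were not tested either. The genes searched had been picked for the highest and lowest ratios. The share over all genes was not computed, so the count of 8 does not show how frequent such genes are. CSF3 had a ratio of 0.00969 at day 90 and 7.42 at day 7, and at day 90 it rests on 1 member with a UMI in the FAK inhibitor graft. With cells thinned to 3000 UMIs its day 90 log2 ratio was -0.12, within 1.5-fold. That value rests on 39 thinned members of the FAK inhibitor graft, where the floor of 3 counts can set the level. It does not show equal CSF3 levels in the grafts. HPS5 had 0.0118 and 7.28, AMCF-II, a pig chemokine of the CXCL family, had 0.0756 and 1.64, IL6 had 0.126 and 1.88, CXCL8 had 0.128 and 2.20, and ODAPH had 0.154 and 2.67 at day 90 and day 7. ODAPH, like SERPINE2, is on the gene list for fibroblasts with IL11 and MMP13. In the opposite sense, CLEC3B had 2.13 at day 90 and 0.264 at day 7, and FST had 4.99 and 0.569.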

How the results depend on the processing

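No paired analysis was possible because each group had 1 library, and no replicate could be left out. Leaving out shared barcodes or cells with 10 or more UMIs of other cell types, both chosen after seeing the data, moved no share or count of genes in the comparisons of the report by 1.5 times. Without the exclusion of MMP13, IL11, PRSS35 and TUBB3 cells, share ratios were 1.27 (FAK inhibitor over untreated, day 90), 1.13 (the same, day 7), 0.285 (day 90 over day 7, FAK inhibitor) and 0.254 (day 90 over day 7, untreated); genes higher and lower with the FAK inhibitor were 347 and 490 at day 90 and 138 and 147 at day 7, and 13 and 11 over all 5 libraries. With GREM1 alone, share ratios were 0.677 (FAK inhibitor over untreated, day 7), 0.502 (day 90 over day 7, FAK inhibitor) and 2.26 (untreated day 7 over unwounded skin), 11 genes were higher in all 5 libraries, and 311 were higher in the FAK inhibitor graft at day 90 than in unwounded skin. With F13A1 alone the FAK inhibitor share ratio of day 90 over day 7 was 0.254. Thinned to 3000 UMIs, share ratios were 1.47 (FAK inhibitor over untreated, day 90), 0.204 and 0.112 (day 90 over day 7, FAK inhibitor and untreated). Genes higher and lower with the FAK inhibitor were then 716 and 711 at day 90 and 173 and 188 at day 7, 404 were higher in the untreated graft at day 90 than at day 7, and 642 were lower at day 7 than in unwounded skin. Thinned, 701 were higher in the FAK inhibitor graft at day 90 than at day 7, and against skin 661 were higher and 632 lower in the FAK inhibitor graft and 782 and 736 in the untreated graft at day 90. At 10 CPM, genes higher and lower were 892 and 908 (FAK inhibitor over untreated, day 90), 222 and 429 (the same, day 7), 648 and 997 (untreated, day 90 over day 7), 1637 and 1419 (untreated day 7 over skin), and 83 and 50 over all 5 libraries; with no filter beyond 1 UMI they were 1739 and 1825, 872 and 1664, 1619 and 2083, 2505 and 2812, and 157 and 150. For FAK inhibitor day 90 over day 7, FAK inhibitor day 90 over skin and untreated day 90 over skin, they were 1402 and 1649, 692 and 1055, and 1226 and 1553 at 10 CPM, and 2900 and 2558, 1379 and 1917, and 2059 and 2388 with no filter. Directions reversed for these log2 ratios. For the FAK inhibitor over untreated graft at day 7, CCL4 was 0.95 with at most 25% mitochondrial UMIs and the top Scrublet scores removed together (the joint filter), 0.43 at 4% collagen, 1.35 with GREM1 alone and 1.64 without cells of other types; and KRT5 was 0.10 when thinned. At day 90, CLDN5 was 2.23 with the joint filter, 2.01 at 0 UMIs of RGS5, VWF and PTPRC and 1.83 without cells of other types, SCG3 was 0.77 and 0.78 with the joint filter and without cells of other types, MYLK was -0.21 with the joint filter, the contractile median was 0.11 with GREM1 alone and the cell cycle median was -0.39 when thinned. CLDN5 was -0.24 with the joint filter and HBB 1.20 when thinned for untreated day 90 over day 7, and HBB was -1.70 when thinned for day 7 over skin. In members over others, THBS4 was -1.63 in skin with GREM1 alone and COMP 1.47 in the FAK inhibitor graft at day 90 when thinned. By the stated rule COMP was at 0 CPM in those members. HBB was at 1.11 CPM in members of the untreated graft at day 90 and 0.736 CPM in those of skin. After thinning, the floor of 3 counts can set such ratios, so the thinned COMP and HBB values do not show a change of direction. The causes were not tested.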
